A study of Mus musculus with 10 samples.

Results

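Of the 32523 mouse retinal cells in the table, 78 with at least 4000 unique molecular identifiers (UMIs) held no UMI of Gad1, Gad2 or Slc6a9. A UMI stands for 1 captured RNA molecule, and the products of these genes make GABA or take up glycine. The 52 cells described here, the members, were chosen by counts alone. They had at least 4000 UMIs, 0 UMIs of Gad1, Gad2, Slc6a9 and Slc17a8, and at most 2 UMIs of Cck. The 52 members made up 0.304% of the 17101 cells of that depth, held 268407 UMIs in all, and came from all 10 libraries, with 2 to 8 in each. They were set beside 10399 cells of the same depth with at least 2 UMIs of Gad1 plus Gad2 and none of Slc6a9 (the Gad gate), and 1856 with at least 2 UMIs of Slc6a9 and none of Gad1 or Gad2 (the Slc6a9 gate). Median depth was 4687.5 UMIs in the members, 7049 in the Gad gate and 4918 in the Slc6a9 gate.

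Every library came from retinas of Chx10-cre-GFP mice at postnatal day 19 and none received a treatment. Retinas were dissociated with papain, and living cells (Calcein Blue positive) free of GFP, CD133 and CD73 signal were sorted and run on the 10x Chromium 3′ v2 platform. The GFP follows Chx10, a bipolar cell gene, and CD73 and CD133 lie on photoreceptors, so the sort leaves bipolar cells and photoreceptors out. The labels place library 1 in batch 1, libraries 2 to 6 in batch 2 and libraries 7 to 10 in batch 3. Whether each library came from its own animal is not stated there, so every p-value below reflects variation among libraries that may be technical only. Each gene's spread was estimated once, over the members and both gates together. The p-values and standard errors therefore do not measure the spread among the members' libraries alone.

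Amacrine cells are the inhibitory interneurons of the inner retina, and nearly all use either GABA or glycine. Gad1 and Gad2 encode the enzymes that make GABA, Slc6a9 encodes the glycine transporter GlyT1 that glycinergic amacrine cells use to gather glycine, and Slc32a1 encodes VGAT, which loads both transmitters into vesicles. Slc17a8 encodes the glutamate transporter VGLUT3 of another amacrine type, and Cck encodes the peptide cholecystokinin. Amacrine cells with markers of neither transmitter have been described in the mouse, where the bHLH transcription factor Neurod6 marks one such population. Tcf4, an E protein that pairs with bHLH factors, and Igfbp7, a secreted protein that binds insulin-like growth factors, were the other labelled markers of the cells described here.

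In GRCm38 (mm10) with GENCODE M21 annotation, Neurod6 spans chromosome 6 from 55677822 to 55681263 on the minus strand and Ppp1r17 spans chromosome 6 from 56017497 to 56032689 on the plus strand. Igfbp7 spans chromosome 5 from 77349240 to 77408041 on the minus strand, and Crabp1 spans chromosome 9 from 54764748 to 54773110 on the plus strand. All are protein-coding. Leading genes of cluster 32 below included Neurod6 and Crabp1, and Igfbp7 led cluster 47. For this reason the 250 bases before the start of each are shown. They come from RefSeq (GRCm38.p6) at chr6:55681264-55681513 (minus strand), chr9:54764498-54764747 (plus strand) and chr5:77408046-77408295 (minus strand), read 5′ to 3′, and capitals mark each E box, the letters CANNTG that bHLH dimers bind (the same on both strands).
Neurod6: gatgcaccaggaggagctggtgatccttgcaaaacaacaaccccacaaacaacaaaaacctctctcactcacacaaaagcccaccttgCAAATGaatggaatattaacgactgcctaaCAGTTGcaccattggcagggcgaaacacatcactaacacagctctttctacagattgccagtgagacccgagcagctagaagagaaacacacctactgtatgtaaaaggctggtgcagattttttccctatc
Crabp1: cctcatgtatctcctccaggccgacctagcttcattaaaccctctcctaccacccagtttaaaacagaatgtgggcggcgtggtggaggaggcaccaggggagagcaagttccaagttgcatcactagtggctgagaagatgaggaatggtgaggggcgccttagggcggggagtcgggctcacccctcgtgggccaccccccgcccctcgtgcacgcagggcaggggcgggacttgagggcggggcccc
Igfbp7: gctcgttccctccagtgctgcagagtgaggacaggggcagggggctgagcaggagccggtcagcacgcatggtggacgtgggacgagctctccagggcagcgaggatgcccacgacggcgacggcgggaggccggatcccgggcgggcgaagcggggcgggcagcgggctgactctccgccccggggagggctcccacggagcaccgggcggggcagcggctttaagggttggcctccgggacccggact
The Neurod6 stretch held 2 E boxes, and those of Crabp1 and Igfbp7 held 0. Of 32851 stretches of the same length in the RefSeq table, 66.2% held at least 1, and a match is a description and not a bound site. G and C made up 46.0% of the Neurod6 stretch, 63.6% of that of Crabp1 and 74.0% of that of Igfbp7.

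How many cells met the marker clauses depended on depth. Of cells from 1000 to under 2000 UMIs 16.7% met them, from 2000 to under 3000 UMIs 10.1%, and from 3000 to under 4000 UMIs 3.17%. Above the depth limit the share went on falling, from 0.885% at 4000 to under 5000 UMIs (31 of 3501 cells, 95% Wilson interval 0.62 to 1.25%) through 0.469% at 5000 to under 6000 UMIs to 0.103% at 6000 to under 8000 UMIs. From 8000 to under 12000 UMIs 3 of 3982 cells met them, and at 12000 UMIs or more 0 of 2016 did, which allows a share of up to 0.149% (the limit is 3 cells of the total). Intervals and limits cover counting error only. When every cell was first thinned at random to 4000 UMIs, 206 cells met the clauses, a mean of 1.39% of deep cells per library. Whether a member lacked these transcripts or held them uncaptured was not tested.

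**Figure D1:**
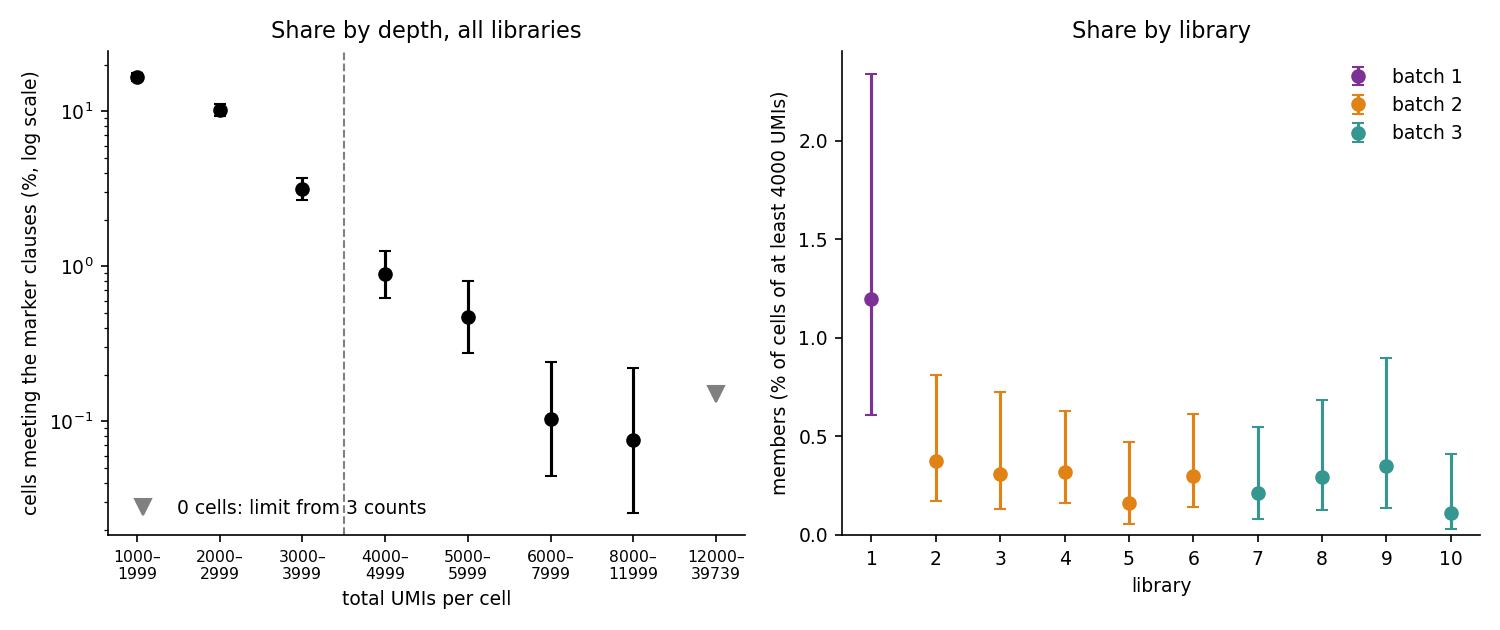
Left, the share of cells that met the marker clauses in each range of total UMIs, on a log scale, with 95% Wilson intervals; the dashed line is the limit of 4000 UMIs, and the triangle is the limit that 0 of 2016 cells allows. Right, members as a percent of the cells of at least 4000 UMIs in each library, with 95% Wilson intervals, coloured by batch; library 1 stood at 1.20% and the others at 0.113 to 0.374%.

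By library the members made up 0.363% ± 0.304 (SD, n = 10) of the deep cells, from 0.113% in library 10 to 1.20% in library 1. The remaining 9 libraries lay between 0.113% and 0.374%, so library 1, the only one of its batch, stood apart. The shares were 0.292% ± 0.0791 (SD, n = 5) in batch 2 and 0.243% ± 0.103 (SD, n = 4) in batch 3, a difference within the spread between libraries (exact two-sided permutation test, p = 0.444). Batch 1 held 1 library and could not be tested.

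The rule's limits ran through a continuum of cells. Of 78 deep cells with no Gad1, Gad2 or Slc6a9, 20 were left out for Slc17a8 and 6 for Cck. Just outside stood 111 cells with a single Gad1 or Gad2 UMI and 65 with a single Slc6a9 UMI, and 48 cells within 500 UMIs below the depth limit met the other clauses. Just inside, 22 members lay within 500 UMIs above it. Tcf4, scaled to the total UMIs as CPM, stood at 246 in the members pooled, at 168 in the cells with a single Gad UMI and at 724 in those with a single Slc6a9 UMI. Igfbp7 stood at 279, 87.1 and 275 CPM in the same order. Some barcodes occurred in more than 1 library (923 barcodes, 1860 cells), and 1 member was among those cells. No doublet caller was run, and whether the authors removed doublets is not given in the sources used here.

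The members carried general amacrine genes. Slc32a1 was detected in 47 of the 52, Pax6, a transcription factor of amacrine cells, in 49, at least one of the pair in all 52 and both in 44. Slc32a1 per library was 387, 626 and 1057 CPM (lowest, median and highest of 10 libraries) in the members, 559, 646 and 732 CPM in the Gad gate and 491, 557 and 646 CPM in the Slc6a9 gate, and all 3 groups overlapped. Its log2 change was -0.09 against the Gad gate (edgeR adjusted p = 0.862) and 0.14 against the Slc6a9 gate (adjusted p = 0.661). With TMM scaling the first became -0.45 (adjusted p = 0.00885). Pax6 averaged 981 ± 326 (SD, n = 10) in the members, 979 ± 32.3 in the Gad gate and 892 ± 79.1 CPM in the Slc6a9 gate, and did not pass the test against either (adjusted p = 0.951 and 0.44; with TMM scaling -0.32 on the log2 scale against the Gad gate, adjusted p = 0.0461). Thinned to 4000 UMIs, 86.5% of members, 91.4% of Gad gate cells and 88.1% of Slc6a9 gate cells kept a Slc32a1 UMI, against 90.4%, 97.9% and 92.9% at full depth.

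Genes of AP-2 factors, which act in amacrine cell development, were detected in 39 members. Tfap2b per library was 43.7, 595 and 1237 CPM in the members, 1059.6, 1157 and 1315 CPM in the Gad gate and 811, 1108 and 1255 CPM in the Slc6a9 gate. It was lower in the members than in the Gad gate in 9 of 10 libraries (log2 change -0.97 ± 0.18 SE, adjusted p = 0.000622) and lower than in the Slc6a9 gate in 8 (-0.83 ± 0.18 SE, adjusted p = 0.00137). Both calls were lost when the members were chosen by Gad1, Gad2 and Slc6a9 alone (log2 change -0.31 and -0.18). Of the 10 general amacrine genes listed, 0 were higher and 3 lower than in the Gad gate (Tfap2b, C1ql1 and C1ql2), where 2.04% of all genes tested were called in either direction at an adjusted p below 0.05. Against the Slc6a9 gate, where 7.52% were called, C1ql1, C1ql2 and Snhg11 were higher and Tfap2b was lower. The list's median log2 change was -0.16 and 0.22. With TMM scaling, another way to set the library scale, 8 of the 10 were lower than in the Gad gate, and 3 were higher and 2 lower than in the Slc6a9 gate.

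Markers of other retinal cells were scarce. Listed markers that occur in amacrine cells too, such as Nefl, Nefm, Thy1 and Rgs5, were not counted. No UMI of the 5 ganglion cell markers or of the 5 pericyte markers counted was found in the members. For rods, 3 of 10 markers were detected and their sum was 0.0071% of UMIs, against 0.0093% in the Gad gate and 0.0107% in the Slc6a9 gate. All 8 cone and all 9 bipolar markers were detected at 0.0231% and 0.0250% of the members' UMIs, against 0.0144% and 0.0150% in the Gad gate. By library the cone sum ran from 0 to 0.0423% in the members and from 0.0113 to 0.0173% in the Gad gate, and the bipolar sum from 0.0071 to 0.0604% against 0.00997 to 0.0198%. Of the 10 Müller glia markers 8 were detected, at 0.0864% of UMIs, with Aqp4 and Kcnj10 at 0. The Müller sum was 0.121% of UMIs in the Gad gate and 0.0458% in the Slc6a9 gate. By a limit set from the gate cells, 4 members carried another class's markers, 3 of them cone, and 48 were kept. The cells set aside were 7.69% of the members, 2.49% of the Gad gate and 1.89% of the Slc6a9 gate. Leaving these out gave 181 calls against the Gad gate and 640 against the Slc6a9 gate, close to the counts below, and the part of these markers in the results was not tested otherwise.

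The label's markers were found in a minority of the members. Neurod6 was detected in 3 of the 52, Igfbp7 in 17 and Tcf4 in 22. No member held all 3, 5 held Igfbp7 and Tcf4, and 18 held none. The members are therefore called by the rule that chose them, cells without captured Gad1, Gad2 and Slc6a9 transcripts, and not by these genes.

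Neurod6 stood at 42.7 ± 83.4 CPM (mean ± SD, n = 10) in the members, from 0 in 7 libraries to 223 CPM in the highest, against 0.944 ± 0.172 CPM in the Gad gate and 2.93 ± 2.4 CPM in the Slc6a9 gate. It was too sparse to enter the test. After thinning, 5.77% of members held a UMI (Wilson interval 1.98 to 15.6%), against 0.442% of Gad gate cells and 0.754% of Slc6a9 gate cells; without thinning the shares were 5.77%, 0.673% and 1.02%. Most cells with Neurod6 were shallower than the members. In the series, 153 cells held at least 2 Neurod6 UMIs, at a median depth of 2797 UMIs. Of these, 124 fell under 4000 UMIs, and 51 of those met every other clause, while of the 29 deeper cells 2 were members. Of the deeper 29, 21 held Gad1 or Gad2 and 20 held Slc6a9.

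Igfbp7 was higher in the members than in both gates. It stood at 0, 208 and 673 CPM (lowest, median and highest library) in the members, 33.6, 67.7 and 117 CPM in the Gad gate and 24.1, 39.3 and 58.1 CPM in the Slc6a9 gate. In 7 of 10 libraries the members were above both gates, and in the other 3 no UMI was found, so the groups overlapped. The log2 change was 1.86 (SE 0.34, adjusted p = 0.000435) against the Gad gate and 2.58 (SE 0.37, adjusted p = 1.13e-06) against the Slc6a9 gate. Against the Gad gate it was 0.96 within batch 2 (adjusted p = 0.205) and 2.51 within batch 3 (adjusted p = 4.93e-06). A single cell gave 21.3% of the 75 Igfbp7 UMIs. That cell lay in cluster 18 of the clustering below. The cells of cluster 18 as a whole held Igfbp7 at 1330 CPM and Gad1 plus Gad2 at 1613 CPM. Summed counts cannot tell apart more cells with a transcript from more transcripts per cell, and after thinning 32.7% of members held an Igfbp7 UMI, against 9.0% of Gad gate cells and 12.1% of Slc6a9 gate cells (32.7%, 13% and 14% unthinned).

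Tcf4, on the plus strand of chromosome 18 from 69343356 to 69689079, lay between the gates. It stood at 0, 219.9 and 835 CPM in the members, 43.2, 61.6 and 70.3 CPM in the Gad gate and 447, 578 and 665 CPM in the Slc6a9 gate. The members were above the Gad gate in 8 libraries and below the Slc6a9 gate in 9. The log2 change was 2.04 (SE 0.30, adjusted p = 1.55e-05) against the Gad gate and -1.24 (SE 0.22, adjusted p = 5.68e-05) against the Slc6a9 gate; the second was -1.41 within batch 2 and -0.60 within batch 3, where it did not pass (adjusted p = 0.436). After thinning, 38.5% of members, 18.9% of Gad gate cells and 79.9% of Slc6a9 gate cells held a Tcf4 UMI, against 42.3%, 30.6% and 85.2% without thinning.

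**Figure D2:**
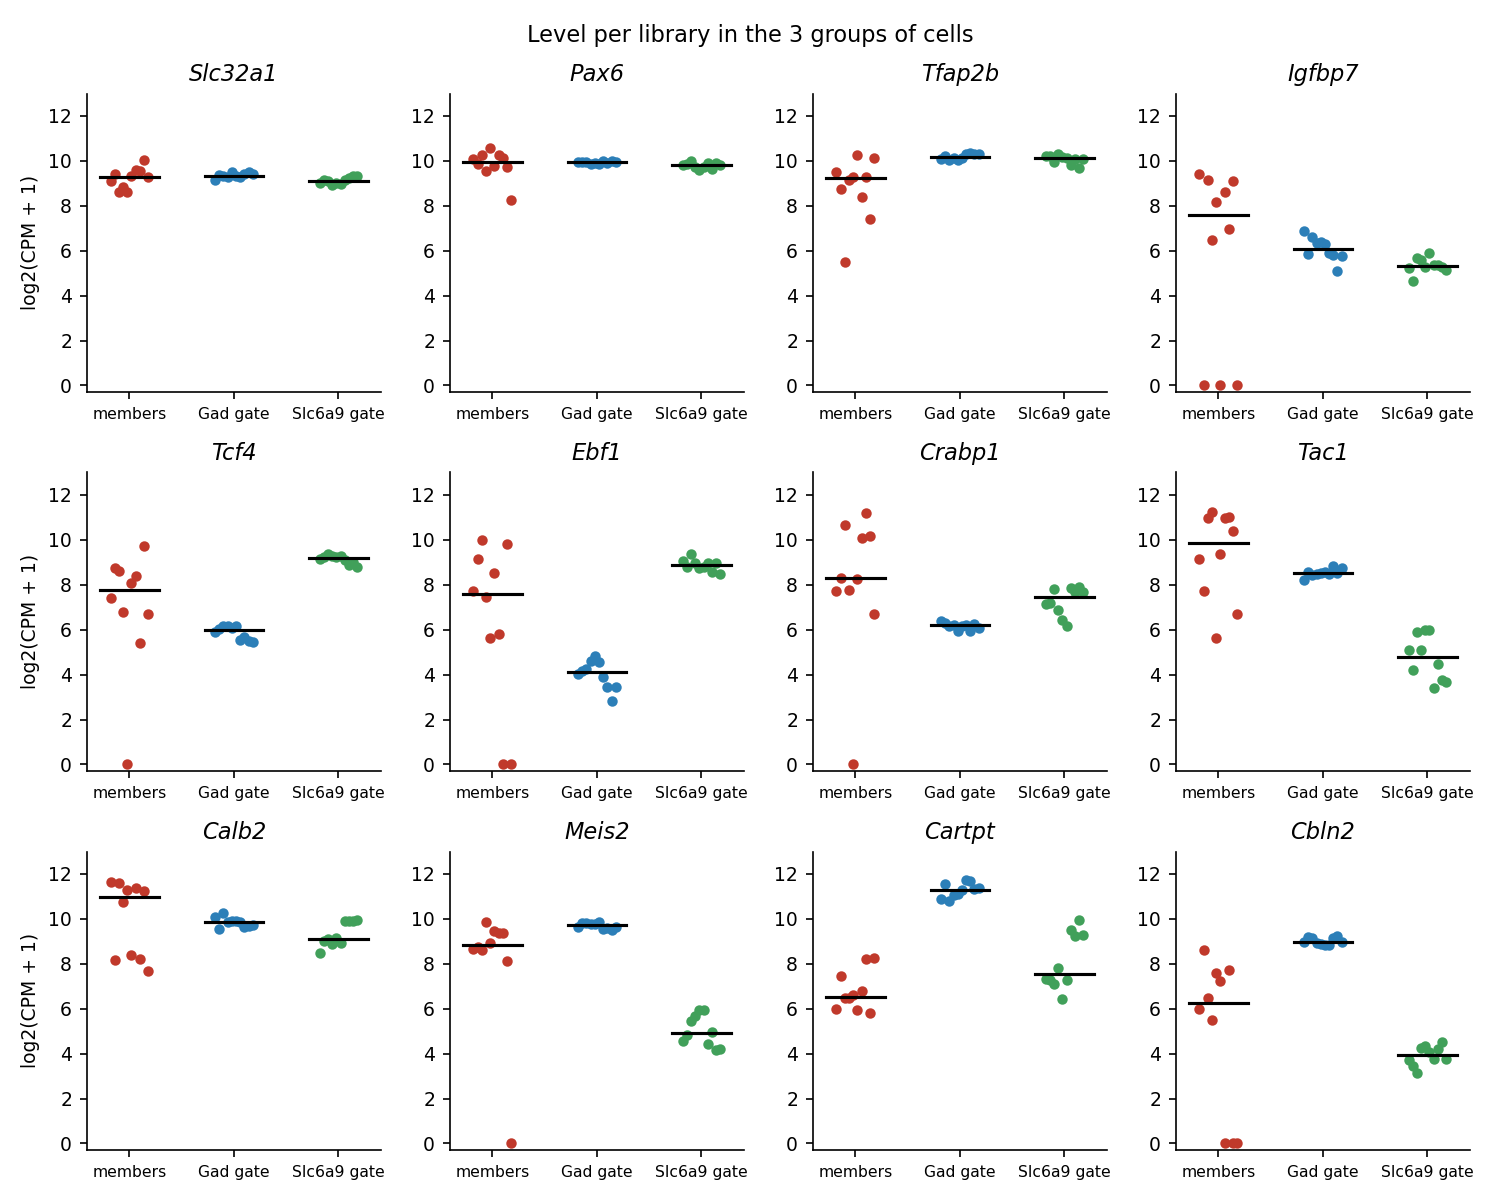
Level per library of 12 genes, as log2(CPM + 1) of the UMIs summed over the members, the Gad gate and the Slc6a9 gate; each point is 1 of 10 libraries and the line is their median. Igfbp7, Crabp1 and Tac1 were called higher in the members than in both gates, though not in every library. Tcf4 and Meis2 lay between the gates, and the members' points spread most, with 2 to 8 members in a library.

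Across all genes, the counts of calls rest on 2 to 8 members per library, and a gene that was not called may still differ. Of 8907 genes tested, 182 (2.04%) differed from the Gad gate at an adjusted p below 0.05, 90 (1.01%) higher and 92 (1.03%) lower in the members. Against the Slc6a9 gate 670 (7.52%) differed, 435 (4.88%) higher and 235 (2.64%) lower. The members enter both comparisons, so the pair is given side by side only, and which gate the members were closer to was not tested; the Gad gate held more and deeper cells. The median log2 change over all genes was -0.02 against the Gad gate and 0.03 against the Slc6a9 gate. These counts scale each summed library to its total UMIs. With TMM scaling (factors of 1.01 to 1.66 in the members and 0.865 to 0.938 in the gates), the medians moved to -0.36 and -0.35, and 847 genes (9.51%) were called against the Gad gate, 72 (0.808%) higher and 775 (8.7%) lower. Against the Slc6a9 gate TMM called 1320 (14.8%), 286 (3.21%) higher and 1034 (11.6%) lower. DESeq2 moved the split the other way, with 189 higher and 66 lower against the Gad gate and 584 and 209 against the Slc6a9 gate. With no filter on low counts 161 were higher and 109 lower than in the Gad gate. With cells of at least 6000 UMIs alone, of which 8 were members, 6 and 206 genes were called. Of the calls against the Gad gate named in the text, those of C1ql1 and Cartpt held and the others were lost. The 8 members came from libraries 1, 4 and 5, none of them in batch 3. They lay in clusters 18, 26, 28, 30, 34 and 45 of the clustering below. Each of these clusters held Gad1 plus Gad2 above 500 CPM, so the mix of cells differed from that of the 52 members.

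**Figure D3:**
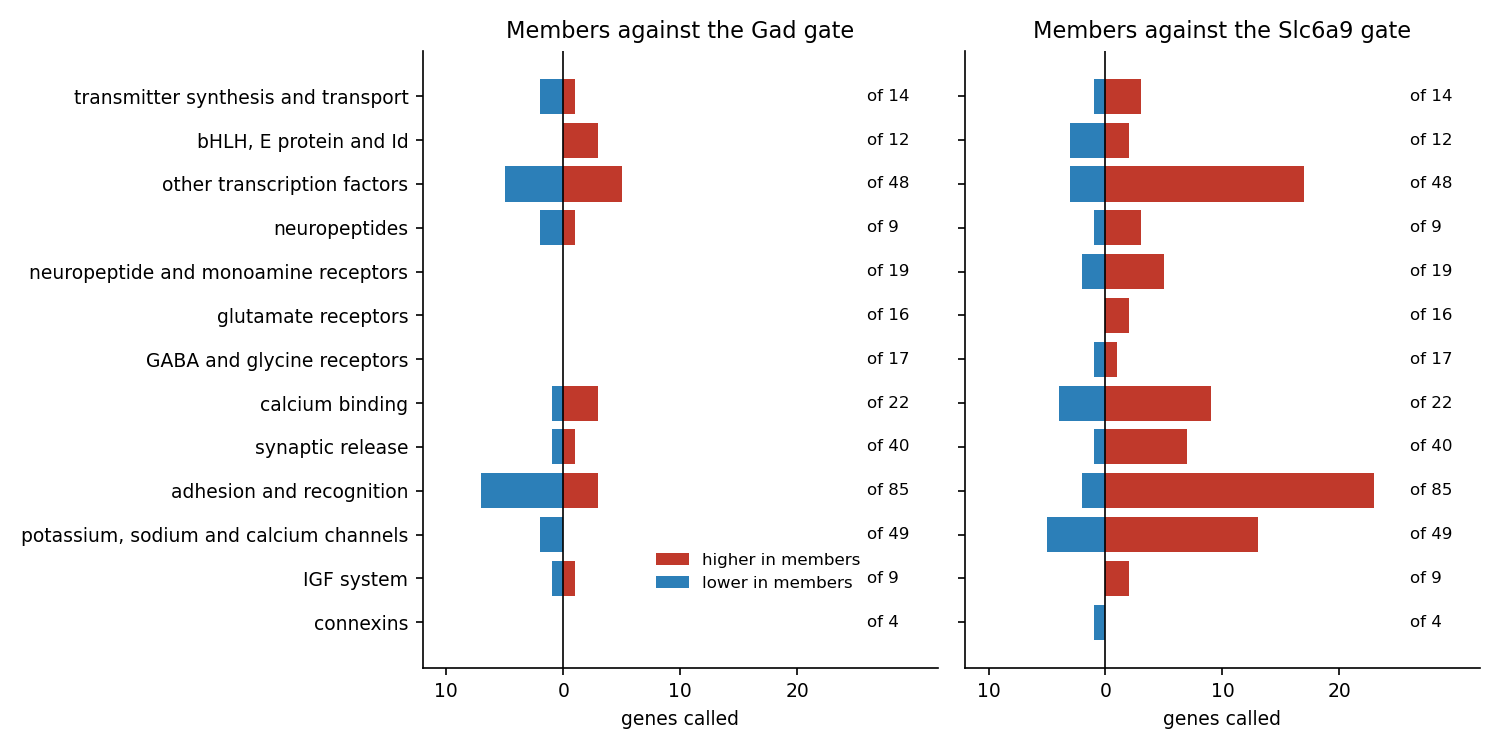
Genes called at an adjusted p below 0.05 in 13 lists grouped by role, higher in the members to the right and lower to the left, against the Gad gate (left panel) and the Slc6a9 gate (right panel), with the number tested at the right. Receptor lists held 0 calls against the Gad gate, and adhesion genes held 23 higher and 2 lower calls against the Slc6a9 gate. Over all genes tested, 2.04% were called against the Gad gate and 7.52% against the Slc6a9 gate.

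Of 14 genes tested that make or move transmitters, 1 was higher and 2 were lower than in the Gad gate, and 3 were higher and 1 was lower than in the Slc6a9 gate; the list's median log2 change was -0.02 and -0.18. With TMM scaling 1 was higher and 5 lower, and 3 were higher and 3 lower. Slc6a11, the GABA transporter GAT-3, averaged 39.4 ± 46.5 CPM (SD, n = 10) in the members against 209 ± 27.9 CPM in the Gad gate (-2.42 ± 0.37 SE, adjusted p = 3.45e-05). With 10 member UMIs it was higher than in the Slc6a9 gate in 6 libraries (2.42 ± 0.67 SE, adjusted p = 0.0146), a call lost without any 1 of libraries 6 or 8 (adjusted p up to 0.19). That call was also lost within batch 2, within batch 3, and with cells carrying other classes' markers set aside (1.89, adjusted p = 0.164). Slc6a12, a betaine and GABA transporter, gave 4 member UMIs, a ratio of 0.189 to the pooled Slc6a9 gate (counting interval 0.0514 to 0.483); the fitted log2 change was -2.40, and -4.19 without library 2. It was the 1 gene of the list higher than in the Gad gate (4.56 ± 1.17 SE, adjusted p = 0.0217), a call lost without any 1 of libraries 2 or 6 (adjusted p up to 0.641).

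Of 12 bHLH, E protein and Id genes tested, 3 were higher than in the Gad gate and 0 were lower, and 2 were higher and 3 lower than in the Slc6a9 gate; the medians were 0.17 and 0.20 (3 higher and 2 lower, and 2 higher and 4 lower, with TMM scaling). Id4, an inhibitor of bHLH factors, stood at 0, 107 and 392.3 CPM in the members, 197, 279 and 316 in the Gad gate and 2.28, 5.48 and 8.01 CPM in the Slc6a9 gate, and was higher than in the latter (5.13 ± 0.39 SE, adjusted p = 7.2e-14). Neurod4 was higher than in the Gad gate (2.87 ± 0.59 SE, adjusted p = 0.00236). Neurod2, a neurogenic bHLH factor, was lower than in the Slc6a9 gate in all 10 libraries (-2.46 ± 0.35 SE, adjusted p = 1.16e-06) and higher than in the Gad gate (2.63 ± 0.61 SE, adjusted p = 0.00921), a call lost without library 9 (adjusted p = 0.0514). Neurod1 was lower than in the Slc6a9 gate (-2.11 ± 0.48 SE, adjusted p = 0.00182). Both calls against the Slc6a9 gate were lost when the members were chosen by Gad1, Gad2 and Slc6a9 alone (adjusted p = 0.0892 for Neurod2 and 0.718 for Neurod1) and within batch 3 (adjusted p = 0.154 and 0.348).

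Of 48 other transcription factors tested, 5 were higher and 5 lower than in the Gad gate, and 17 were higher and 3 lower than in the Slc6a9 gate; the medians were 0.11 and 0.58 (6 higher and 10 lower, and 14 higher and 7 lower, with TMM scaling). Ebf1, which marks a set of glycinergic amacrine cells, stood at 0, 192 and 1004 CPM in the members, 6.18, 16.1 and 27.7 CPM in the Gad gate and 359.6, 474 and 658 CPM in the Slc6a9 gate. The members exceeded the Gad gate in 8 libraries and held no Ebf1 UMI in the other 2 (4.23 ± 0.48 SE, adjusted p = 5.17e-08), and did not pass the test against the Slc6a9 gate (-0.61 ± 0.32 SE, adjusted p = 0.307). Meis2, a homeobox factor common in GABAergic amacrine cells, stood at 0, 454 and 935 CPM in the members, 719, 839 and 929 CPM in the Gad gate and 16.9, 28.8 and 60.4 CPM in the Slc6a9 gate. It was higher than in the Slc6a9 gate in 9 libraries (4.03 ± 0.27 SE, adjusted p = 9.48e-16) and lower than in the Gad gate in 9 (-0.62 ± 0.17 SE, adjusted p = 0.0358), where the call was lost without any 1 of libraries 1, 2, 3, 5 or 9 (adjusted p up to 0.128).

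Eomes, a T-box factor, was higher than in the Slc6a9 gate, where it was nearly absent (6.68 ± 0.73 SE, adjusted p = 2.07e-09). Its 21 UMIs came from 8 members. Against the Gad gate the log2 change was 2.04 (SE 0.47, adjusted p = 0.00849), and the call was lost without any 1 of libraries 4 or 8 (adjusted p up to 0.209). Six3, a homeobox factor of the eye, was lower than in the Gad gate in 9 libraries (-1.26 ± 0.23 SE, adjusted p = 0.000621). Prox1, a homeobox factor found in AII amacrine cells, was lower than in the Slc6a9 gate in all 10 libraries (-2.03 ± 0.35 SE, adjusted p = 4.87e-05). Of the 5 AII markers listed, Calb2, Dab1, Nfia, Prox1 and Gjd2, the last 4 were lower than in the Slc6a9 gate and Calb2 was higher; the Nfia call was lost without library 4 (adjusted p = 0.0661). Against the Gad gate 3 of the 5 were higher and 0 lower, with a median of 0.93: Calb2, Dab1 (1.91 ± 0.34 SE, adjusted p = 0.000375) and Prox1 (2.27 ± 0.56 SE, adjusted p = 0.0153), the last lost without any 1 of libraries 6 or 9 (adjusted p up to 0.0616). Gjd2, the gap junction protein connexin 36, was lower than in the Slc6a9 gate in all 10 libraries (-2.60 ± 0.31 SE, adjusted p = 1.95e-08, -3.56 without library 6).

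Of 9 neuropeptide genes tested, 1 was higher and 2 were lower than in the Gad gate, and 3 were higher and 1 lower than in the Slc6a9 gate; the medians were -0.22 and 0.50 (1 higher and 2 lower, and 3 higher and 2 lower, with TMM scaling). Tac1, which encodes substance P, stood at 48.4, 999.6 and 2456 CPM in the members, 297, 367 and 458 CPM in the Gad gate and 9.61, 27.2 and 63.1 CPM in the Slc6a9 gate. The members were above the Gad gate in 7 libraries (1.71 ± 0.27 SE, adjusted p = 3.85e-05) and above the Slc6a9 gate in 9 (5.45 ± 0.37 SE, adjusted p = 1.97e-15). DESeq2 did not call the first. The SD of Tac1 over libraries was 937 CPM in the members and 44.3 CPM in the Gad gate, and 1 cell gave 25.1% of its 327 member UMIs. Tac1 was found in 23 members. Those included all 8 of cluster 28 (median 14.5 UMIs) and 6 of the 8 of cluster 47, both described below. Cartpt, which encodes the CART peptide, moved the other way: it stood at 55.6, 92.1 and 309 CPM in the members and 1779, 2532 and 3448 CPM in the Gad gate, and the groups did not overlap (-4.42 ± 0.49 SE, adjusted p = 5.17e-08).

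Vip, vasoactive intestinal peptide, gave 2 UMIs in the members, a ratio of 0.0186 to the pooled Gad gate (counting interval 0.0023 to 0.0673), and averaged 418 ± 141 CPM there. Its fitted log2 change was -5.86, and -6.70 without library 6 and -6.74 without library 7. Tac2, which encodes neurokinin B, was spread unevenly: it stood at 0, 97.8 and 2022 CPM in the members and 225, 261 and 323 CPM in the Gad gate, did not pass the test there (1.13 ± 0.35 SE, adjusted p = 0.0921, 0.20 without library 4), and was higher than in the Slc6a9 gate (5.86 ± 0.54 SE, adjusted p = 2.44e-11, 4.92 without library 4). Npy, neuropeptide Y, was higher than in the Slc6a9 gate as well (4.41 ± 0.56 SE, adjusted p = 9.17e-08, 3.02 without library 6), but 1 cell gave 65.7% of its 99 UMIs. Without library 6 it was also lower than in the Gad gate (-1.80, adjusted p = 0.0012).

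With libraries scaled to total UMIs, every call in the 3 receptor lists was against the Slc6a9 gate; with TMM scaling 1 gene of each list was lower than in the Gad gate. Whether the 2 comparisons differ was not tested. Over all genes tested, 2.04% were called against the Gad gate and 7.52% against the Slc6a9 gate. In lists of 16 to 19 genes, 0 calls against the Gad gate lies near that share. Of 19 peptide and monoamine receptors tested, 0 were called against the Gad gate, while 5 were higher and 2 lower than in the Slc6a9 gate. Adora1, the adenosine A1 receptor, was higher there (4.89 ± 0.76 SE, adjusted p = 7e-06, 5.62 without library 4). Drd4, a dopamine receptor, gave 2 member UMIs, a ratio of 0.0460 to the Slc6a9 gate (counting interval 0.0056 to 0.166); the fitted log2 change was -4.36, and -5.19 without library 2 and -5.18 without library 6. Of 16 glutamate receptor genes, 0 were called against the Gad gate and 2 were higher than in the Slc6a9 gate, Grin2b (1.85 ± 0.41 SE, adjusted p = 0.00145) and Gria2 (0.62 ± 0.13 SE, adjusted p = 0.000489; not called with TMM scaling). Of 17 GABA and glycine receptor genes, 0 were called against the Gad gate; Gabbr2 was higher (1.91 ± 0.40 SE, adjusted p = 0.000833, -0.24 within batch 3) and Gabrg3, with 4 member UMIs, lower than in the Slc6a9 gate (ratio 0.157, counting interval 0.0428 to 0.402; fitted log2 change -2.65, and -3.47 without library 1).

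Of 22 calcium-binding genes tested, 3 were higher and 1 was lower than in the Gad gate, and 9 were higher and 4 lower than in the Slc6a9 gate; the medians were 0.24 and 0.47 (1 higher and 5 lower, and 6 higher and 4 lower, with TMM scaling). Calb2, the calcium buffer calretinin, stood at 206, 2066 and 3155 CPM in the members, 748, 927 and 1217 CPM in the Gad gate and 361, 557 and 979.5 CPM in the Slc6a9 gate. The members were above each gate in 6 libraries and below in 4. Calb2 passed against the Slc6a9 gate (1.37 ± 0.27 SE, adjusted p = 0.000366), though DESeq2 did not call it. Against the Gad gate (0.93 ± 0.26 SE, adjusted p = 0.044) the call was lost without any 1 of libraries 1, 3, 4, 5, 7 or 9 (adjusted p up to 0.244). It was also lost there with TMM scaling and with DESeq2.

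Kcnip4, a subunit of A-type potassium channels, was higher than in both gates in 9 of 10 libraries. It stood at 0, 170.4 and 393 CPM in the members, 34.9, 36.7 and 50.2 CPM in the Gad gate and 57.9, 83 and 161 CPM in the Slc6a9 gate. The log2 change was 2.28 (SE 0.32, adjusted p = 6.62e-06) against the Gad gate and 1.09 (SE 0.30, adjusted p = 0.0132) against the Slc6a9 gate, the second lost without library 5 (adjusted p = 0.0636) and with TMM scaling. Vsnl1, the calcium sensor visinin-like 1, was higher than in the Slc6a9 gate in all 10 libraries (2.15 ± 0.19 SE, adjusted p = 9.69e-12). Ncald and Cabp1, neuronal calcium sensors, were lower than in the Slc6a9 gate in all 10 libraries (-1.70 ± 0.25 SE, adjusted p = 1.82e-06 for Ncald).

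Of 40 genes of vesicle release tested, 1 was higher and 1 lower than in the Gad gate, and 7 were higher and 1 lower than in the Slc6a9 gate, with medians of -0.16 and 0.31. The counts depended on the scaling: with TMM 1 was higher and 13 were lower than in the Gad gate, and 6 were higher and 8 lower than in the Slc6a9 gate. Cplx3, a complexin of ribbon synapses and AII cells, stood at 543, 832 and 1958 CPM in the members and 2201, 2559 and 3844 CPM in the Slc6a9 gate; the groups did not overlap (-1.66 ± 0.11 SE, adjusted p = 1.97e-15). Syt7, a calcium sensor of slow release, was higher than in the Slc6a9 gate (2.36 ± 0.35 SE, adjusted p = 2.03e-06). Syt1, the main calcium sensor of release, averaged 1361 ± 389 CPM in the members and 1809 ± 101 CPM in the Gad gate (-0.37 ± 0.10 SE, adjusted p = 0.0226), a call lost without any 1 of libraries 2, 5, 6 or 8 (adjusted p up to 0.106).

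Adhesion and recognition genes made the longest list, with 85 tested. Against the Gad gate 3 were higher and 7 lower, with a median of 0.00; against the Slc6a9 gate 23 were higher and 2 lower, with a median of 1.08 (1 higher and 9 lower, and 22 higher and 9 lower, with TMM scaling). C1ql1 and C1ql2 encode secreted C1q-like proteins that organise synapses. C1ql1 stood at 48.4, 507 and 1328 CPM in the members, 1960.5, 2230.2 and 2700.2 CPM in the Gad gate and 76.5, 87.7 and 137 CPM in the Slc6a9 gate. It was below the Gad gate in all 10 libraries (-1.47 ± 0.17 SE, adjusted p = 8.12e-08) and above the Slc6a9 gate in 9 (3.18 ± 0.26 SE, adjusted p = 5.1e-13). C1ql2 was lower than in the Gad gate (-1.46 ± 0.20 SE, adjusted p = 3.58e-06) and higher than in the Slc6a9 gate (4.54 ± 0.36 SE, adjusted p = 3.06e-13). Cbln2, a cerebellin that bridges neurexins to receptors, was below the Gad gate in all 10 libraries (-2.11 ± 0.24 SE, adjusted p = 5.17e-08) and above the Slc6a9 gate in 7 (3.01 ± 0.42 SE, adjusted p = 9.02e-07). Slit2, an axon guidance ligand, was lower than in the Gad gate (-2.22 ± 0.41 SE, adjusted p = 0.000621).

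Of 49 channel genes tested, 0 were higher and 2 lower than in the Gad gate, and 13 were higher and 5 lower than in the Slc6a9 gate; the medians were -0.08 and 0.35. With TMM scaling 0 were higher and 7 lower than in the Gad gate, and 12 higher and 9 lower than in the Slc6a9 gate. Kcna6, a voltage-gated potassium channel, was higher than in the Slc6a9 gate in 9 libraries (3.38 ± 0.34 SE, adjusted p = 1.72e-10). Of the 9 genes of the insulin-like growth factor system tested, Igfbp7 and Igfbp2 were called (1 was higher and 2 lower than in the Gad gate with TMM scaling). Igfbp2 was lower than in the Gad gate in all 10 libraries (-1.64 ± 0.37 SE, adjusted p = 0.00631) and higher than in the Slc6a9 gate in 6 (2.85 ± 0.61 SE, adjusted p = 0.000888), whereas Igfbp7 was higher than in both. Of 4 connexin genes tested, Gjd2 was the 1 called, and with TMM scaling 1 was also lower than in the Gad gate.

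Outside the lists, 62 genes were called against both gates. At 100 CPM or more, 16 were higher than in both and 12 lower. None of the 16 was higher in every library, and 1 of the 12 was lower in every library. That gene was Chga, which encodes chromogranin A of dense-core vesicles. It stood at 165, 199.9 and 332 CPM in the members, 371, 501 and 581 CPM in the Gad gate and 309.9, 376 and 440.2 CPM in the Slc6a9 gate. The log2 change was -1.06 (SE 0.19, adjusted p = 0.000379) against the Gad gate and -0.68 (SE 0.20, adjusted p = 0.0231) against the Slc6a9 gate, the second lost without library 2 (adjusted p = 0.0559). When the members were chosen by Gad1, Gad2 and Slc6a9 alone, both signs turned (0.07 and 0.45).

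Of 8 dissociation stress genes tested, 0 differed from the Gad gate and 5 were higher than in the Slc6a9 gate. Fos, an immediate early gene, averaged 585 ± 444 CPM (SD, n = 10) in the members, 612 ± 104 in the Gad gate and 241 ± 55.6 in the Slc6a9 gate (1.38 ± 0.24 SE, adjusted p = 6.17e-05). Their part in the calls against the Slc6a9 gate was not tested.

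A further set of genes was chosen after their values were seen, because they led a cluster that held members or stood out in member cells. Crabp1, which binds retinoic acid in the cytoplasm, was higher than in both gates. It stood at 0, 310.0 and 2334 CPM in the members, 59.7, 72.3 and 82.4 CPM in the Gad gate and 70.6, 174 and 239 CPM in the Slc6a9 gate, with log2 changes of 3.22 (SE 0.37, adjusted p = 5.77e-08) and 2.0 (SE 0.34, adjusted p = 3.66e-05). Ppp1r17, a phosphatase inhibitor, was higher than in the Gad gate (4.73 ± 0.66 SE, adjusted p = 4.18e-06, 3.82 without library 9), with 43.8% of its 73 UMIs in 1 cell.

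The members were not 1 kind of cell. All 32523 cells were clustered on genes other than those of the rule, which gave 60 clusters, and the 52 members fell into 24 of them. In all, 5 clusters held at least 3 members, 25 between them, 8 held 2 and 11 held 1. The genes that lead a cluster helped to make it, so the values below describe the cells and are not tested. Clusters are given by number and leading genes, with no cell type name.

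**Figure D4:**
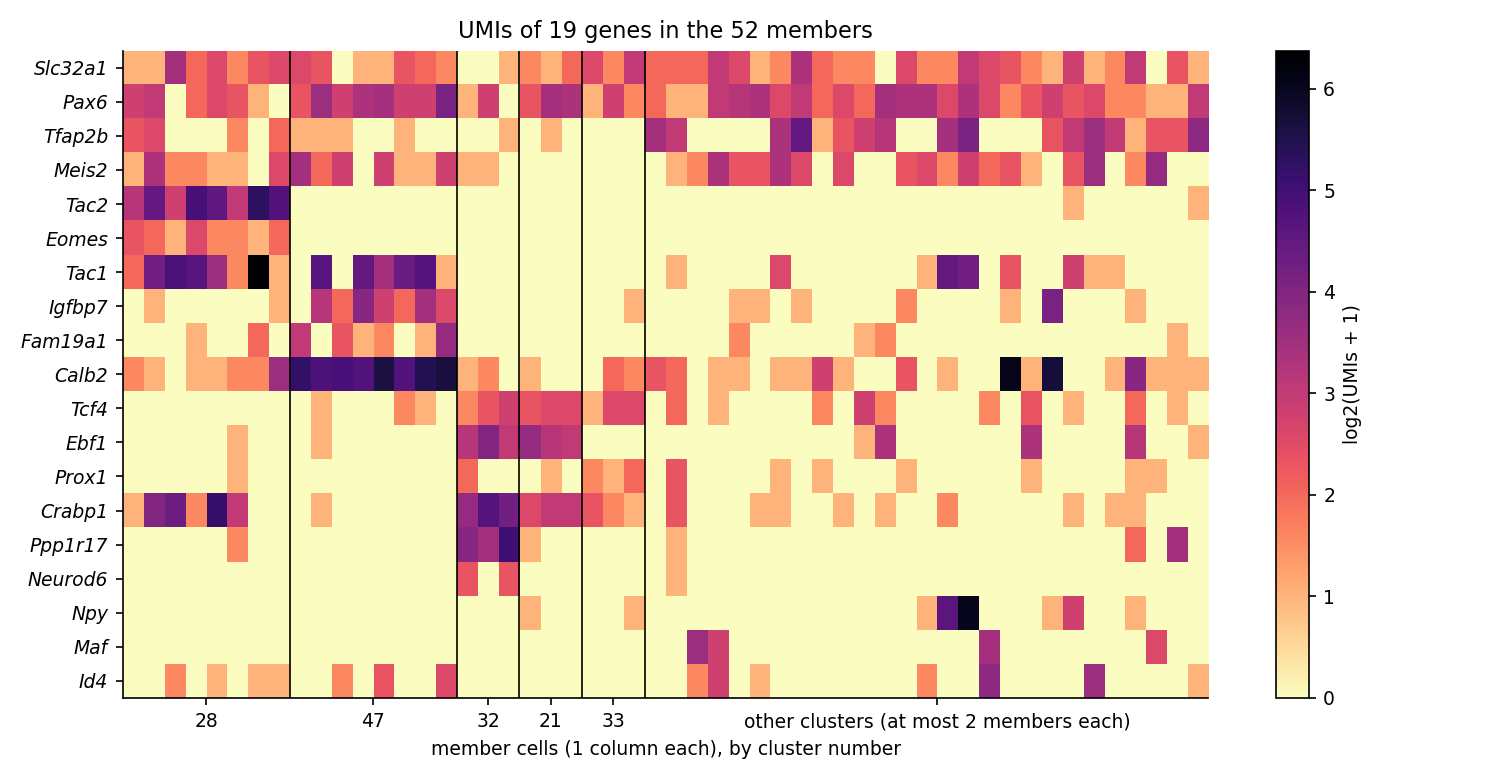
UMIs of 19 genes in each of the 52 members, as log2(UMIs + 1), with members ordered by cluster. Tac2 and Eomes filled the members of cluster 28, Calb2 filled those of cluster 47, of which 7 held Igfbp7, and Ppp1r17, Crabp1 and Ebf1 filled those of cluster 32, while Slc32a1 and Pax6 ran through most columns.

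Cluster 28, led by Tac2, Sst and Eomes, held 8 members of its 400 deep cells. Tac2 ran from 6 to 38 UMIs in these members, and Tac2 in the other 44 members reached 1 UMI. Eomes was found in all 8 and in 0 of the other 44. Sst, which encodes somatostatin and led the cluster, was at 0 in all 8. All 8 carried Slc32a1 and none carried Tcf4 or Neurod6. The cluster's cells as a whole held Gad1 plus Gad2 at 688 CPM and Slc6a9 at 29.1 CPM.

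Cluster 47, led by Igfbp7, Fam19a1 and Kctd12, also held 8 members, of 69 deep cells. Calb2 ran from 26 to 49 UMIs in them, and Igfbp7 was found in 7 at up to 14 UMIs. Kcnip4 was found in all 8 and in 13 of the other 44, and Tac1 in 6. Pax6 was found in all 8 and Slc32a1 in 7, while Tac2, Eomes, Ppp1r17 and Neurod6 were at 0. Over all members, 16 of the 17 with Igfbp7 also held Calb2. The cluster as a whole held the Gad pair at 366 CPM and Slc6a9 at 124 CPM.

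Cluster 32, led by Ppp1r17, Crabp1, Krt24 and Neurod6, held 3 members of only 10 deep cells, in 479 cells with a median of 2388 UMIs. Ppp1r17 ran from 10 to 32 UMIs in the 3, Crabp1 from 12 to 25 and Ebf1 from 7 to 15. Neurod6 was found in 2 of the 3, at 4 UMIs each, and in 1 other member at 1 UMI. All 3 held Tcf4, none held Igfbp7 or Tac1, and Slc32a1 was found in 1. The cluster held the Gad pair at 76.1 CPM and Slc6a9 at 200.4 CPM. It also held 77 of the 153 cells with at least 2 Neurod6 UMIs. Neurod6, Crabp1 and Ebf1 were among the leading genes of cluster 12 as well, which held Neurod6 at 162 CPM. Cluster 12 held the Gad pair at 93.1 CPM and Slc6a9 at 302 CPM. Its Cck, which the rule limits, stood at 1505 CPM, and 0 of its 25 deep cells were members.

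Clusters 21 and 33 held 3 members each. Those of cluster 21 carried Ebf1 (7 to 12 UMIs), Tcf4 (4 to 5 UMIs) and Crabp1 (5 to 7 UMIs), with no Meis2. Those of cluster 33 carried Nfix (4 to 9 UMIs), Prox1 (1 to 3 UMIs) and Tcf4 (1 to 5 UMIs), with no Ebf1. Cluster 21 held Slc6a9 at 890.3 CPM and the Gad pair at 128 CPM, and cluster 33 held 515 and 368 CPM. Across all members, 11 of the 13 with Ebf1 held Tcf4 too.

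**Figure D5:**
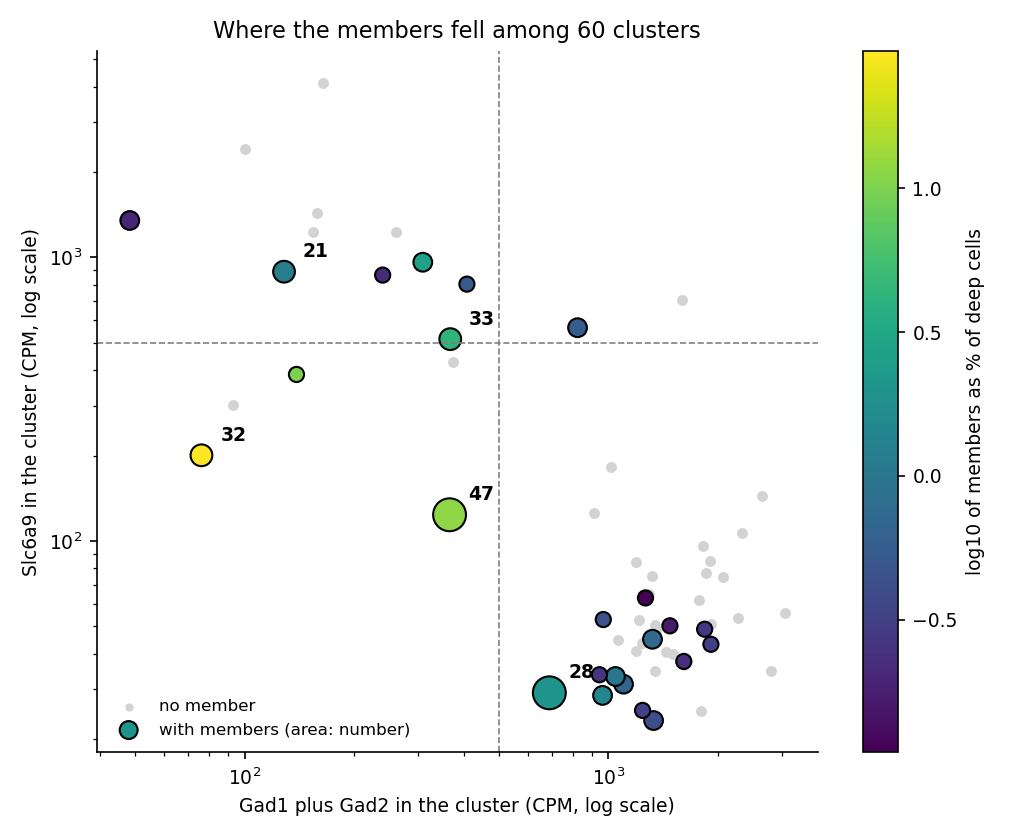
Each point is 1 of 60 clusters, at its summed Gad1 plus Gad2 level and its Slc6a9 level in CPM, both on log scales; grey clusters held no member, the area of the others gives the number of members and the colour the members as a percent of deep cells (log10). The dashed lines stand at 500 CPM, and the numbered clusters held at least 3 members.

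Most members shared a cluster with cells that did carry transmitter genes. At a level of 500 CPM, chosen after the clusters had been seen, 26 members lay in clusters high for the Gad pair alone, 12 in clusters high for Slc6a9 alone, 2 in clusters high for both and 12 in clusters below both. The 12 were 2.5% of the 480 deep cells of the 5 clusters below both, whereas members were 0.193% of the deep cells in Gad-high clusters and 0.438% in Slc6a9-high clusters. Of the 480 cells, 366 lay in cluster 17, with Slc17a8 at 1181 CPM, and 25 in cluster 12, with Cck at 1505 CPM. The rule limits both genes, and neither cluster held a member. The 12 members lay in clusters 47, 32 and 37, which held 69, 10 and 10 deep cells. The rule is made of these same genes, so this describes where the members lay.

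Shallower cells of the same clusters were also counted against the clauses. From 2000 to under 3000 UMIs, 54.5% of the cells of cluster 32 met them (122 of 224, Wilson interval 47.9 to 60.9%), 43.1% of cluster 47, 21.6% of clusters 28 and 33 each and 12.2% of cluster 21, against 10.1% of all cells. From 3000 to under 4000 UMIs the shares were 51.8% for cluster 32 (interval 41.2 to 62.2%), 26.2% for cluster 47, 14.0% for cluster 28, 12.8% for cluster 33 and 3.47% for cluster 21, against 3.17% of all cells. At 4000 UMIs or more they were 30% for cluster 32 (3 of 10, interval 10.8 to 60.3%), 11.6% for cluster 47, 4.23% for cluster 33, 2% for cluster 28 and 1.20% for cluster 21. In all 5 clusters the share was lower in each deeper range. The intervals of the shallowest and the deepest range overlapped in cluster 32 and not in the other 4, and those of neighbouring ranges overlapped in every case but the deeper pair of cluster 28.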

How the data were processed

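The data were single-cell RNA counts from 10 libraries of 1 group (mouse retina, postnatal day 19). The deposited table held counts, whole numbers of UMIs per gene (27933 symbols) and cell. Cell Ranger 2.1.0 and the build mm10 are named in the submitters' processing notes. No label states the authors' annotation, cell filters or doublet treatment.

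Counts of each library were summed per class (members 9703 to 47550 UMIs) and tested with edgeR 4.0.16 in R 4.3.3: quasi-likelihood test, filterByExpr, all 3 classes in 1 fit, library as a block since the classes share libraries, Benjamini-Hochberg adjustment over all genes tested, threshold 0.05. The 5 genes of the rule got no test. SEs were derived from each gene's quasi-likelihood F statistic. Plus-minus values are means and SDs over libraries unless given as SE.

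There were 2 departures from the planned tests, made after seeing the data. TMM scaling shifted unchanged genes in simulated data, so the fits scale to total UMIs and TMM is given beside them. A minimum of 10 cells per library and class would have left 0 libraries, so 2 was used. With cells of at least 6000 UMIs, any library with a cell of the class was used. A comparison of members with and without Neurod6 could not be run, since 2 of the kept members held at least 2 Neurod6 UMIs.

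A cell was set aside as another class with at least 3 of that class's markers detected. The markers' summed share of its UMIs also had to exceed that of 99% of gate cells. Clustering used log counts scaled to 10000 per cell, 2000 variable genes, centring within libraries, 40 principal components, 20 neighbours and Leiden resolution 3 (leidenalg 0.10.2). Named genes were the label's markers, the rule's genes, up to 6 called genes per list by size of log2 change, and genes outside the lists called against both gates with 1 sign in every library; exceptions are stated, and some named genes are not reported here. The members and lists were chosen with earlier results of these data known. DESeq2 1.42.0 and the settings in the closing section were tried as alternatives.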

Additional observations from a re-analysis of the deposited data

Results flagged for a closer look

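In groups of 10 libraries, 4 of the 50 sets of values checked held a library whose gap to its nearest neighbour exceeded Dixon's 95% critical value, as a share of the whole range; chance flags about 1 in 20 such sets. Members made up 1.20% of the deep cells of library 1, with 0.374% in the next highest library; without library 1 the mean share was 0.27%. Tcf4 in the members stood at 835 CPM in library 9, with 424 CPM next. Kcnip4 in the Gad gate stood at 50.2 CPM in library 1, with 38.3 CPM next, and Ppp1r17 in the Slc6a9 gate at 384 CPM in library 1, with 260.2 CPM next.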

How the results depend on the processing

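The counts of called genes were 182 against the Gad gate and 670 against the Slc6a9 gate, and 181 and 640 with cells carrying other classes' markers left out. They moved by over 1.5 times under 5 alternatives, given here in that order. TMM scaling gave 847, 1320, 908 and 1310 calls. Cells of at least 6000 UMIs, of which 8 were members, gave 6, 206, 8 and 223. These 8 members came from libraries 1, 4 and 5 alone. Batch 3 alone gave 112, 228, 90 and 226, and batch 2 alone 425 and 399 against the Slc6a9 gate. Members chosen by Gad1, Gad2 and Slc6a9 alone gave 459 and 323 against the Gad gate. Leaving out 1 library gave 146 to 186, 495 to 661, 130 to 177 and 447 to 634 calls, and the fit with no replicate block 160, 642, 154 and 611. The members' share of 0.363% moved to 1.39% when cells were thinned to 4000 UMIs before gating, and leaving out 1 library gave 0.27 to 0.391%.

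Of 90 gene calls checked, 70 were kept whichever 1 library was left out. Of the 90, 59 were lost in cells of at least 6000 UMIs, 33 within batch 3, 19 within batch 2 and 11 with members chosen by Gad1, Gad2 and Slc6a9 alone. Signs turned in 174 of 3212 checks (log2 changes), in 20 of them with a call in at least 1 of the fits compared, as follows. Against the Gad gate, at 6000 UMIs or more: Tcf4 -2.04, Slc6a12 -3.64, Neurod4 -8.16, St18 -5.61, Vsnl1 0.028 and Dab1 -0.59. With TMM scaling: Pax6 -0.32 and Snhg11 -0.35. Within a batch: Slc6a12 -3.57 and Maf -11.14 in batch 3, Fos -0.75 in batch 2. With the rule's other clauses dropped: Neurod1 1.78 and Chga 0.071. Against the Slc6a9 gate, at 6000 UMIs or more: Kcnip4 -0.45, Crabp1 -0.50 and Ppp1r17 -3.25. Within a batch: Tfap2c 1.89 in batch 2, Maf -5.77 and Gabbr2 -0.24 in batch 3. With the other clauses dropped: Chga 0.45. The causes were not tested. Tests rest on 52 cells, so a gene that missed the threshold may still differ, and a count of 0 in a library of 2 to 8 members does not show that the gene is absent.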
